A study of Mus musculus with 23 samples.

Results

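The proteins of the mitochondrial ribosome are encoded by nuclear genes named Mrpl (large subunit) and Mrps (small subunit). All genes of the deposited table whose symbol is Mrpl or Mrps followed by a number, with or without 1 closing letter, were taken, which gave 78 of 21900 genes, 49 for the large subunit and 29 for the small one. Mrps18a and Mrps30 were counted with the small subunit by symbol, although their proteins sit in the large subunit of the mammalian ribosome. All 78 passed the filter on low counts in each fit and had counts in all 23 libraries.

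The mitochondrial ribosome descends from a bacterial one. It translates the messages of the mitochondrial genome, which encode core subunits of the respiratory chain and the ATP synthase, while its own proteins are made in the cytosol and imported. When a T cell is activated it grows and adds mitochondrial mass, and the synthesis of mitochondrial proteins is known to be needed for proliferation and effector function.

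Polyadenylated RNA was measured in OT-I cells (CD8) and OT-II cells (CD4), which are T cells of mice whose transgenic receptors recognise ovalbumin (OVA) peptides, after transfer into wild-type mice (strain C57BL/6). On day 1 after transfer the mice received 1 ug of A8B1-OVA, saline, free OVA at the molar equivalent, or free OVA at a higher dose, and the cells were sorted on day 5 from pooled spleens and lymph nodes, with the RNA of 3 mice pooled per library. The sources used here give neither what A8B1 is, nor the unit of the 0.5 and 5 in the titles of the OVA groups, nor the age of the mice. The 8 groups had n = 3 libraries each, except OT-II cells with higher-dose OVA, which had n = 2 (replicates 2 and 3). Nothing in the labels says more of how replicates were separate than these pools, so p-values measure the spread between the pools.

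The libraries held between 26.6 M and 73.5 M counts each. In saline mice the cell types stood apart at their defining genes, with Cd8a higher in OT-I by 8.33 and Cd4 lower by 8.33 on the log2 scale. Markers of other cells were present in all libraries, at levels that varied widely. The summed level of 8 B cell markers was 108.8 to 1994.1 CPM (counts scaled to 1 M per library) across the libraries. That of 12 myeloid markers was 98.5 to 1099.7 CPM, and that of 5 T cell lineage markers 2360.7 to 5893.6 CPM. In an alternative chosen after the data were seen, 5 libraries were left out together. OT-I saline 1, OT-I molar-equivalent OVA 2, OT-II saline 1 and OT-II molar-equivalent OVA 3 were chosen for markers of other cells and had the highest B cell sums (467.5 to 1994.1 CPM), although the next, OT-I molar-equivalent OVA 3 and OT-II molar-equivalent OVA 2, were close to the lowest of them at 435.2 and 423.1 CPM. OT-I higher-dose OVA 1 was chosen for its Cd4, at 163.3 CPM, against 0.341 to 16.35 CPM in the other OT-I libraries, and its B cell and myeloid sums were not raised (211.2 and 219.8 CPM). All of them are called the 5 doubted libraries. In pooled cells, a lower level can mean fewer cells of a type or less RNA per cell, and these cannot be told apart. CPM of the members are scaled with TMM factors over all libraries.

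In all 8 groups the mitochondrial ribosomal protein genes were expressed at moderate and rather even levels. Over the 8 group means, the large subunit genes ran from 14.7 to 115 CPM (median 52.8) and the small subunit genes from 18.5 to 111 CPM (median 51.8). Between the lowest and the highest of the 23 libraries, a large subunit gene differed by 1.36 to 2.88 times (median 1.89) and a small subunit gene by 1.33 to 3.28 times (median 1.82). The widest spans were those of Mrps36 (28.2 to 92.7 CPM), Mrps6 (29.4 to 95.5 CPM) and Mrps16 (39.3 to 121 CPM), and the narrowest those of Mrps30 (70.7 to 94.2 CPM) and Mrpl49 (41.3 to 56.2 CPM). Mrps36 encodes a small protein since assigned to the 2-oxoglutarate dehydrogenase complex.

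Levels between genes can be set side by side only per length, here CPM per kilobase of an annotated transcript. The highest large subunit genes on this scale were Mrpl33 (216), Mrpl42 (126) and Mrpl30 (122), and the lowest were Mrpl47 (4.92), Mrpl1 (8.67) and Mrpl17 (8.80). Among the small subunit genes Mrps21 (185), Mrps17 (93.2) and Mrps15 (80.2) were highest, and Mrps25 (6.15), Mrps35 (11.2) lowest, with Mrps5 next. Mrpl33, Mrps21, Mrps17 and Mrps15 are counterparts of bacterial ribosomal proteins. The lowest genes are those with long annotated transcripts (7300 bases for Mrpl17 and 6073 for Mrps25), and which transcript the cells used was not tested.

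The summed large subunit level over the summed small subunit level was 1.651 to 1.843 in the 23 libraries (median 1.722). In OT-I cells this ratio was 1.779 to 1.843 with A8B1-OVA, against 1.712 to 1.741 with saline. In OT-II cells it was 1.706 to 1.730 with A8B1-OVA, against 1.651 to 1.689 with saline. In neither cell type did these 2 groups overlap, and the OT-I saline libraries lay above the OT-II ones. A higher ratio than with saline was not particular to A8B1-OVA. In OT-I cells it was 1.746 to 1.828 with higher-dose OVA, above all saline libraries and overlapping A8B1-OVA. With molar-equivalent OVA it was 1.706 to 1.796, overlapping both. In OT-II cells it was 1.662 to 1.709 with molar-equivalent OVA, overlapping both, and 1.671 to 1.696 with higher-dose OVA, overlapping saline. No test was made of this ratio. The large subunit sum averaged 3421 ± 696 CPM with A8B1-OVA, 2799 ± 198 with saline, 3010 ± 516 with molar-equivalent OVA and 2809 ± 160 with higher-dose OVA in OT-I cells (SD, n = 3 each). In OT-II cells it averaged 2661 ± 338 CPM with A8B1-OVA, 2472 ± 149 with saline, 2505 ± 150 with molar-equivalent OVA (n = 3 each) and 2350 ± 50 with higher-dose OVA (n = 2). The small subunit sum of OT-I cells was 1892 ± 389 CPM with A8B1-OVA and 1617 ± 108 with saline, and that of OT-II cells 1548 ± 208 with A8B1-OVA and 1477 ± 105 with saline (SD, n = 3 each). In both cell types the libraries with A8B1-OVA overlapped those with saline, and neighbours in the order of these means did not differ beyond their spread.

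**Figure D1:**
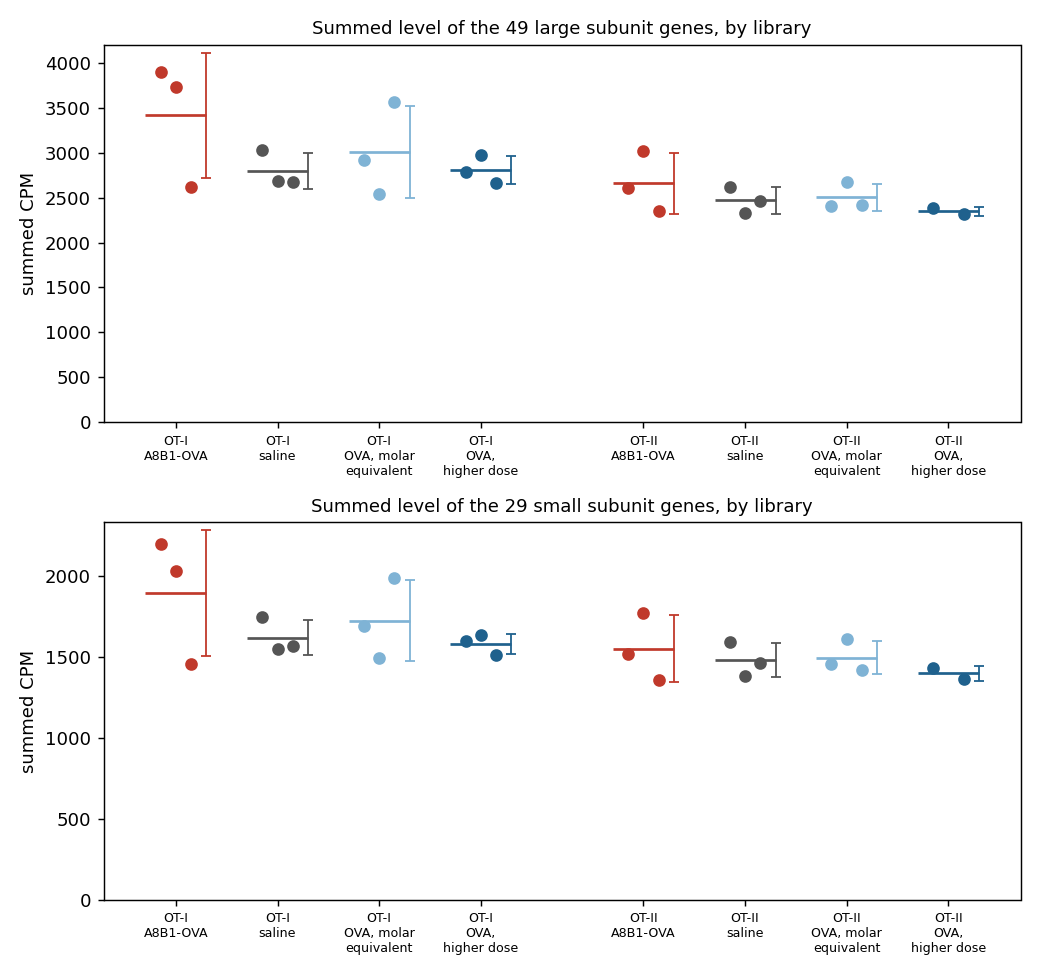
Summed CPM of the 49 large subunit genes (upper panel) and the 29 small subunit genes (lower panel) in each of the 23 libraries, by cell type and treatment; points are libraries, horizontal lines group means and error bars 1 SD. OT-I libraries with A8B1-OVA had large subunit sums of 3906, 3734 and 2624 CPM, the last below the lowest OT-I saline library at 2681 CPM.

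Most single members had their highest group mean in OT-I cells with A8B1-OVA: 43 of 49 large subunit genes and 20 of 29 small subunit genes. The lowest group mean was most often that of OT-II cells with higher-dose OVA, for 31 large and 13 small subunit genes. This is a description of group means, which the high first and second A8B1-OVA libraries of OT-I weigh on. How often these groups held the highest or lowest mean among all genes was not counted, so the counts do not set members apart.

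The comparison of A8B1-OVA with saline in OT-I cells asks how these CD8 cells responded to A8B1-OVA. Mitochondrial ribosomal protein genes leaned upward together, by a small amount, and few changed enough to pass the test. By edgeR's quasi-likelihood test with an adjusted p under 0.05 over 14080 genes, 4 members rose and 1 fell, which is 5.13% and 1.28% of the members, against 7.07% and 4.43% of all genes tested. The share called was thus no higher than among genes at large. Positive log2 fold changes were found for 73 of 78 members (47 of 49 large, 26 of 29 small), against 48.1% of all genes. The members were measured in the same libraries, so a shared direction, here and in the comparisons below, is not 78 separate observations. The median log2 fold change was 0.27 for the large and 0.17 for the small subunit, against -0.02 over all genes. The groups did not overlap for 10 members that were higher and 1 that was lower, which is fewer than the background of 16.9% and 15.5% would give among 78.

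Mrps6, the counterpart of bacterial S6, moved most. It stood at 90.5, 86.7 and 48.9 CPM in the OT-I libraries with A8B1-OVA, against 34.2, 35.7 and 29.4 CPM with saline. All libraries with A8B1-OVA lay above all with saline, the third least so. The log2 fold change was 1.18 ± 0.21 (SE; adjusted p = 0.003), a 2.26-fold difference. Mrpl17 and Mrpl27, counterparts of bacterial L17 and L27, also rose. Mrpl17 had 125.1, 120.5 and 70.5 CPM with A8B1-OVA, against 68.2, 55.9 and 64.6 CPM with saline (log2 fold change 0.73 ± 0.19, adjusted p = 0.025). Mrpl27 had 66.1, 62.55 and 38.7 CPM with A8B1-OVA, against 36.5, 30.7 and 30.8 CPM with saline (0.76 ± 0.20, adjusted p = 0.025). For both genes the third A8B1-OVA library lay only just above the highest saline library.

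Mrps22 encodes a small subunit protein with no bacterial counterpart. It had 29.3, 32.7 and 22.7 CPM with A8B1-OVA, against 19.7, 18.5 and 20.0 CPM with saline (log2 fold change 0.53 ± 0.16, adjusted p = 0.047). Mrpl38, a large subunit protein that is also particular to mitochondria, was the one member that fell. It had 59.9, 45.65 and 49.8 CPM with A8B1-OVA, against 78.4, 65.1 and 75.95 CPM with saline (-0.51 ± 0.15, adjusted p = 0.041), without overlap of the groups.

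The remaining members were spread between these. Mrps16 (log2 fold change 0.60 ± 0.22, adjusted p = 0.10) came next to Mrps6 at the upper end of the small subunit, and Mrps15 (-0.05 ± 0.16, adjusted p = 0.89) and Mrps26 (-0.04 ± 0.16, adjusted p = 0.89) were lowest in it. Mrpl24 (-0.13 ± 0.13, adjusted p = 0.57) was next lowest to Mrpl38. The stalk proteins that recruit translation factors had log2 fold changes of 0.35 ± 0.15 for Mrpl12, 0.28 ± 0.12 for Mrpl10 and 0.27 ± 0.17 for Mrpl11, with adjusted p-values of 0.15, 0.14 and 0.34. The S18 family has 3 members, and their log2 fold changes were 0.24 ± 0.14 for Mrps18a, 0.02 ± 0.13 for Mrps18b and 0.29 ± 0.19 for Mrps18c, none of them called. Mrpl58, which frees peptides from stalled mitochondrial ribosomes, was at 0.07 ± 0.18 (adjusted p = 0.83).

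The count of 5 called members rested on single libraries. It was 23 without the third A8B1-OVA library, 2 and 1 without the first and second, and 2, 1 and 1 without saline libraries 1, 2 and 3. It was 11 with DESeq2, 12 with a trend on transcript length removed, 3 with only these groups in the fit, and 1 without the 5 doubted libraries. The share of all genes called under each setting is not given here and may also have moved, so these counts do not set members apart from other genes. The subunit medians of 0.27 and 0.17 were 0.46 and 0.31 without the third A8B1-OVA library, and the small subunit median was 0.07 without the first A8B1-OVA library and 0.26 without saline library 1. Mrps6 was called under all 13 alternatives. Mrpl17, Mrpl27, Mrps22 and Mrpl38 each lost the call under 5 to 9 of 13, with the highest adjusted p at 0.11, 0.11, 0.19 and 0.19, and kept their direction. All 6 proliferation markers rose in the same comparison (median log2 fold change 3.58), and together they gave 571.3 to 1298.3 CPM with A8B1-OVA and 148.1 to 187.0 CPM with saline. None of 12 myeloid markers was called; together they gave 98.5 to 149.3 CPM with A8B1-OVA and 123.6 to 475.0 CPM with saline. The part of either in the members' levels was not tested.

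**Figure D2:**
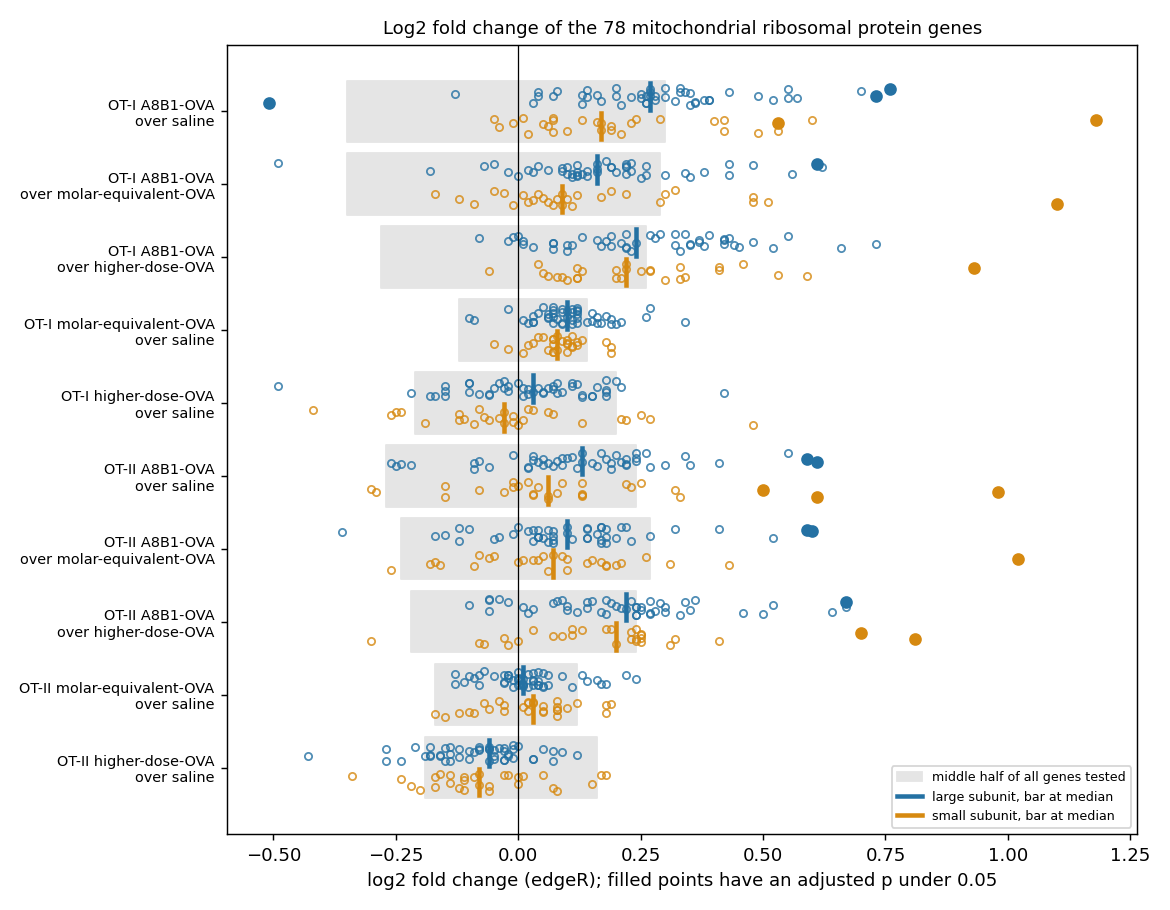
Log2 fold changes of all 78 members in the 10 comparisons of treatments (horizontal axis, edgeR), with large subunit genes in blue, small subunit genes in orange, filled points for an adjusted p under 0.05, bars at the subunit medians and grey bands from the lower to the upper quartile of all genes tested. With A8B1-OVA over saline in OT-I cells the medians were 0.27 and 0.17, and Mrps6 lies far to the right in all 6 comparisons of A8B1-OVA.

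The upward lean was not shared by all OT-I libraries with A8B1-OVA. Relative to the saline mean, the median log2 difference of the large subunit genes was 0.48, 0.42 and -0.06 in A8B1-OVA libraries 1, 2 and 3, and that of the small subunit genes was 0.42, 0.28 and -0.13. Other genes with transcripts of up to 1000 bases moved the same way, with medians of 0.41, 0.25 and -0.18 over 919 genes. In the same 3 libraries, members with transcripts over 1000 bases had medians of 0.41, 0.35 and -0.05. Other genes over 1000 and up to 2000 bases had medians of 0.1, 0.06 and -0.1. In OT-I library 3 with molar-equivalent OVA, members with transcripts up to 1000 bases were at 0.4 and those other short genes at 0.38. Members have shorter transcripts than most genes (median 1251.5 bases, against 2383 over all genes). The part of transcript length in these values was not tested.

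Medians by class of length are given as a description, with no test. In OT-I cells with A8B1-OVA over saline, the median log2 fold change was 0.28 for 26 members and 0.11 for 1254 other genes with transcripts up to 1000 bases. It was 0.20 for 28 members and -0.01 for 3121 other genes over 1000 and up to 2000 bases, and 0.26 for 24 members and -0.04 for 9554 other genes over 2000 bases. With a smooth trend on length removed from each library, an alternative chosen after the data were seen, the medians were 0.25 for the large and 0.15 for the small subunit. In A8B1-OVA library 3 alone, members and other genes with transcripts up to 1000 bases were both at -0.18 relative to the saline mean.

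**Figure D3:**
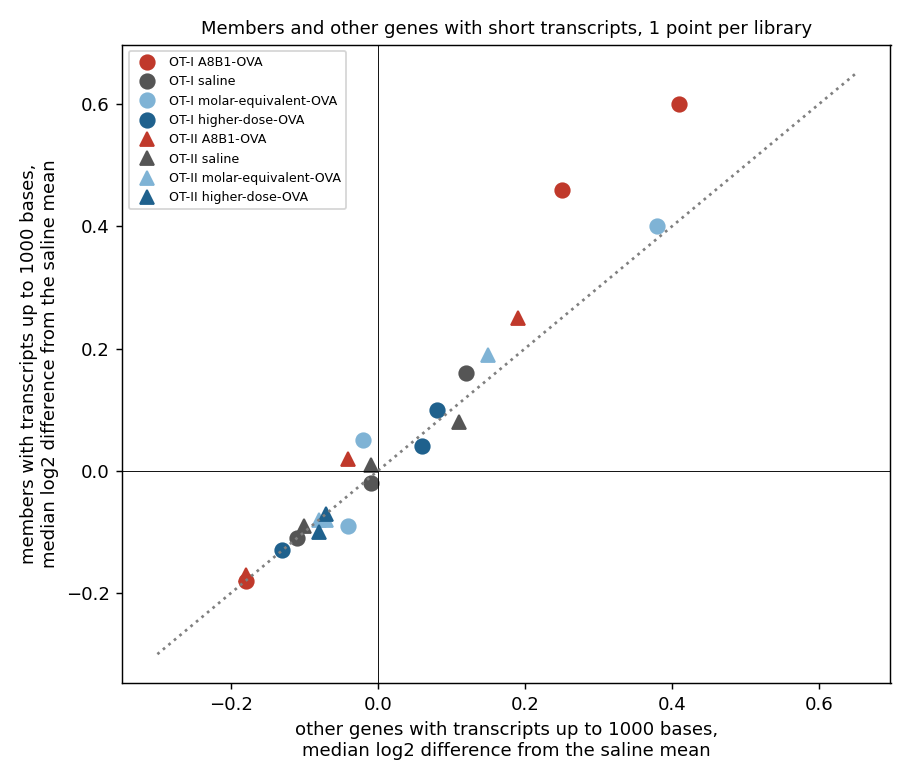
Median log2 difference from the saline mean of the same cell type for the 26 members (vertical axis) and 919 other genes (horizontal axis) with transcripts of up to 1000 bases, 1 point per library, colours for treatments, circles for OT-I and triangles for OT-II; the dotted line marks equal values. OT-I libraries 1 and 2 with A8B1-OVA lie above the line, at 0.60 and 0.46 for members and 0.41 and 0.25 for other genes.

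**Figure D4:**
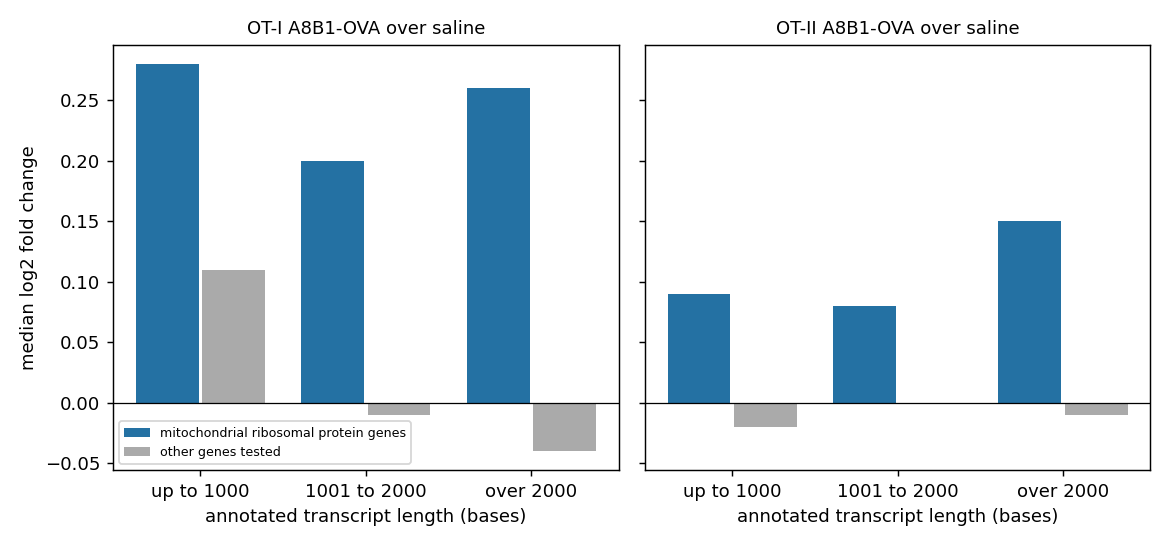
Median log2 fold change of members (blue) and other genes tested (grey) by annotated transcript length, with A8B1-OVA over saline in OT-I (left) and OT-II cells (right). In OT-I cells the members' medians were 0.28, 0.20 and 0.26 in the 3 classes, against 0.11, -0.01 and -0.04 for other genes.

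Against free OVA, the same OT-I libraries gave fewer calls. Comparisons with molar-equivalent OVA and with higher-dose OVA share the A8B1-OVA libraries with the one above and are not separate support. Over molar-equivalent OVA, Mrps6 and Mrpl45 rose and no member fell (2.56%, against 6.56% of all genes higher and 4.06% lower), with medians of 0.16 for the large and 0.09 for the small subunit, against -0.02 over all genes. Mrpl45 sits at the tunnel through which the new protein leaves, and its relative in yeast helps to hold the ribosome at the inner membrane. It had 68.6, 71.8 and 44.5 CPM with A8B1-OVA, against 42.1, 35.2 and 42.9 CPM with molar-equivalent OVA (log2 fold change 0.61 ± 0.17, adjusted p = 0.033). A8B1-OVA library 3 was close to the upper OVA libraries. Mrps6 had a log2 fold change of 1.10 ± 0.21 (adjusted p = 0.0052). The groups did not overlap for 5 members that were higher and 1 that was lower (background 13.3% and 11.9%). The count was 11 without the third A8B1-OVA library, 4 without the third OVA library, 1 without A8B1-OVA library 2 and 1 without OVA library 1. Without OVA library 2 the medians were 0.06 for the large and -0.01 for the small subunit. Without A8B1-OVA library 1 they were 0.09 and 0, without A8B1-OVA library 3 0.32 and 0.24, and without OVA library 3 0.33 and 0.19. The small subunit median was 0.05 without A8B1-OVA library 2. All 6 proliferation markers rose over molar-equivalent OVA (median log2 fold change 3.18), with sums of 571.3 to 1298.3 CPM with A8B1-OVA and 169.4 to 205.1 CPM with molar-equivalent OVA. Of 12 myeloid markers 3 fell (Fcer1g, Tyrobp and Itgam, list median -2.31), with sums of 98.5 to 149.3 CPM with A8B1-OVA and 117.7 to 1099.7 CPM with molar-equivalent OVA. Of 8 B cell markers 0 were called (median -2.43), with sums of 108.8 to 213.4 CPM with A8B1-OVA and 120.8 to 1994.1 CPM with molar-equivalent OVA. The highest sum of both lists was that of OVA library 2. The part of these markers in the members' levels was not tested.

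Over higher-dose OVA, only Mrps6 was called in OT-I cells (1.28%, against 1.63% of all genes higher and 0.774% lower). It had 43.5, 36.7 and 36.0 CPM with higher-dose OVA, against which A8B1-OVA was higher by 0.93 ± 0.21 on the log2 scale (adjusted p = 0.040). That call was lost without any 1 of the libraries other than the third of A8B1-OVA, whose omission gave 20 calls. Mrpl17 (0.73 ± 0.19, adjusted p = 0.063) and Mrpl45 (0.66 ± 0.17, adjusted p = 0.057) were the next members. The groups did not overlap for 10 members that were higher and 0 that were lower (background 11.9% and 9.21%). Of 78 log2 fold changes 73 were positive, and the medians were 0.24 for the large and 0.22 for the small subunit, against -0.02 over all genes. They were 0.38 and 0.36 without the third A8B1-OVA library, and the small subunit median was 0.14 without the first. Of 6 proliferation markers 4 rose (median 1.46) and 0 of 12 myeloid markers were called (median -1.10).

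With free OVA over saline no member passed the test in OT-I cells. With molar-equivalent OVA over saline no gene of any kind was called, 0 members had an unadjusted p under 0.05 by edgeR, and DESeq2 called 0 members. There 73 of 78 log2 fold changes were positive with a median of 0.09, against 52.3% and 0.01 over all genes. The subunit medians of 0.10 and 0.08 were -0.02 and -0.03 without the third OVA library, 0.21 and 0.17 without the second, and 0.17 and 0.15 without saline library 1. They were 0.27 and 0.24 without the 5 doubted libraries. For 0 members did the groups lie apart (background 2.45% higher and 2.68% lower). With higher-dose OVA over saline 0 members passed (background 2.41%), 2 had an unadjusted p under 0.05 (2.56%, against 12.3% of all genes) and DESeq2 called 1. The medians were 0.03 for the large and -0.03 for the small subunit, and the groups did not overlap for 5 members that were higher and 7 that were lower (background 11.2% and 10.9%). Mrpl38 stood out on the low side: it had 58.5, 47.4 and 48.2 CPM with higher-dose OVA, against 78.4, 65.1 and 75.95 CPM with saline (log2 fold change -0.49 ± 0.15, adjusted p = 0.13; 0.034 with DESeq2). The groups did not overlap. Its level with A8B1-OVA differed from that with higher-dose OVA by -0.02 ± 0.15.

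In OT-II cells with A8B1-OVA over saline, 5 members rose and none fell (6.41%, against 4.4% of all 14757 genes higher and 2.88% lower). Of 78 log2 fold changes 61 were positive, against 48.7% of all genes. The medians were 0.13 for the large and 0.06 for the small subunit, against -0.01 over all genes. Mrps6 again moved most, with 74.0, 95.5 and 63.0 CPM with A8B1-OVA, against 41.7, 39.5 and 37.8 CPM with saline (log2 fold change 0.98 ± 0.15, adjusted p = 0.0023). Mrpl45 had 57.6, 51.7 and 44.9 CPM with A8B1-OVA, against 32.05, 33.3 and 36.6 CPM with saline (0.61 ± 0.13, adjusted p = 0.015). In both genes every library with A8B1-OVA lay above every library with saline. The same held for 11 members in all, while 2 lay wholly below (background 11.6% and 11.9%).

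Mrps22 had 21.6, 22.4 and 26.6 CPM with A8B1-OVA, against 17.2, 14.2 and 15.3 CPM with saline in OT-II cells (log2 fold change 0.61 ± 0.13, adjusted p = 0.016). Mrpl17 had 71.1, 88.0 and 56.65 CPM with A8B1-OVA, against 51.9, 43.55 and 49.3 CPM with saline (0.59 ± 0.15, adjusted p = 0.039). Mrps25, a small subunit protein with no bacterial counterpart, had 37.4, 44.8 and 37.4 CPM with A8B1-OVA, against 31.1, 26.7 and 27.8 CPM with saline (0.50 ± 0.12, adjusted p = 0.023). None of these groups overlapped. At the low end were Mrps26 (-0.30 ± 0.10, adjusted p = 0.10), Mrps35 (-0.29 ± 0.15, adjusted p = 0.32), Mrpl38 (-0.26 ± 0.10, adjusted p = 0.16) and Mrpl33 (-0.25 ± 0.15, adjusted p = 0.38).

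The OT-II count was 3 without A8B1-OVA library 1, 3 without library 2, 2 without saline library 2, 2 without saline library 3, 2 with only these groups in the fit and 3 without the 5 doubted libraries. Mrps6 was called under all 13 alternatives. Mrpl17 lost its call under 9 of them (highest adjusted p = 0.14), Mrps25 under 5 (0.088), Mrps22 under 4 (0.062) and Mrpl45 under 2 (0.063), all with their direction kept. The removed length trend was among those that ended the calls of Mrpl17 and Mrps25. The subunit medians of 0.13 and 0.06 were 0.02 and -0.05 without A8B1-OVA library 2, and the small subunit median was 0.15 without A8B1-OVA library 3 and 0.15 without saline library 1. Of the proliferation markers 3 of 6 rose (median log2 fold change 2.11), with sums of 200.3 to 382.4 CPM with A8B1-OVA, against 76.4 to 115.0 CPM with saline. Of 12 myeloid markers 2 fell, S100a8 and S100a9, and all 12 together gave 105.9 to 182.5 CPM with A8B1-OVA and 164.7 to 703.3 CPM with saline. The part of either in the members' levels was not tested.

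Against free OVA in OT-II cells, 3 members rose in each comparison. Over molar-equivalent OVA these were Mrps6 (log2 fold change 1.02 ± 0.15, adjusted p = 0.0021), Mrpl45 (0.60 ± 0.13, adjusted p = 0.016) and Mrpl17 (0.59 ± 0.15, adjusted p = 0.043), which is 3.85% of the members, against 3.94% of all genes higher and 2.43% lower. There 9 members lay wholly above and 1 wholly below (background 12.7% and 12.5%). Over higher-dose OVA they were Mrps6 (0.81 ± 0.17, adjusted p = 0.042), Mrps22 (0.70 ± 0.15, adjusted p = 0.046) and Mrpl45 (0.67 ± 0.15, adjusted p = 0.048), against 0.82% of all genes higher and 0.522% lower. Here 24 members lay wholly above and 0 wholly below (background 13% and 15.2%, with 2 libraries of higher-dose OVA). The members' share of 3.85% in this last comparison was above the background, but the 3 calls sat close to the threshold: all were lost with the replicate block, with only these groups in the fit, without the 5 doubted libraries, and without A8B1-OVA library 1 or 2 or either library of higher-dose OVA. Omission of A8B1-OVA library 1 left 1 call over molar-equivalent OVA. The medians over higher-dose OVA were 0.22 and 0.20 for the large and small subunit, against 0 over all genes, and 0.11 and 0.08 without A8B1-OVA library 2. Of 6 proliferation markers 2 rose over molar-equivalent OVA (median 2.09) and 1 over higher-dose OVA (0.83), and 0 of 12 myeloid markers were called in either (medians -1.11 and -0.61). Over molar-equivalent OVA, Mrpl17 lost its call under 8 of 13 alternatives and Mrpl45 under 2.

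With free OVA over saline no member passed the test in OT-II cells either. With molar-equivalent OVA over saline no gene was called, and 0 members had an unadjusted p under 0.05 by edgeR or a call by DESeq2. The groups did not overlap for 4 members that were higher and 0 that were lower (background 3.78% and 4.24%). With higher-dose OVA over saline, 62 of 78 log2 fold changes were negative with a median of -0.08, against -0.01 over all genes. There 3 members had an unadjusted p under 0.05 (3.85%, against 5.91% of all genes), DESeq2 called 0, and the background of calls was 0.0271%. Of the members 15 lay wholly below saline and 1 wholly above (background 9.78% and 10.7%). Mrpl16 was lowest in that comparison (-0.43 ± 0.15, adjusted p = 0.70).

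Over the 6 comparisons of A8B1-OVA, 7 members were called at least once and 4 of them in both cell types: Mrps6 in all 6, Mrpl45 in 4, and Mrpl17 and Mrps22 in 3 each. How many of all genes were called at least once, or in both cell types, was not counted, so these counts do not set members apart from other genes. The comparisons within a cell type share libraries. The labels do not say whether OT-I and OT-II libraries of the same number come from the same mice, and the deviations of same-numbered A8B1-OVA libraries from their group means correlated across the cell types at 0.012, 0.164 and 0.248, so calls in both cell types are not shown to be independent. The direction was positive for these 4 genes in all 6 comparisons.

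**Figure D5:**
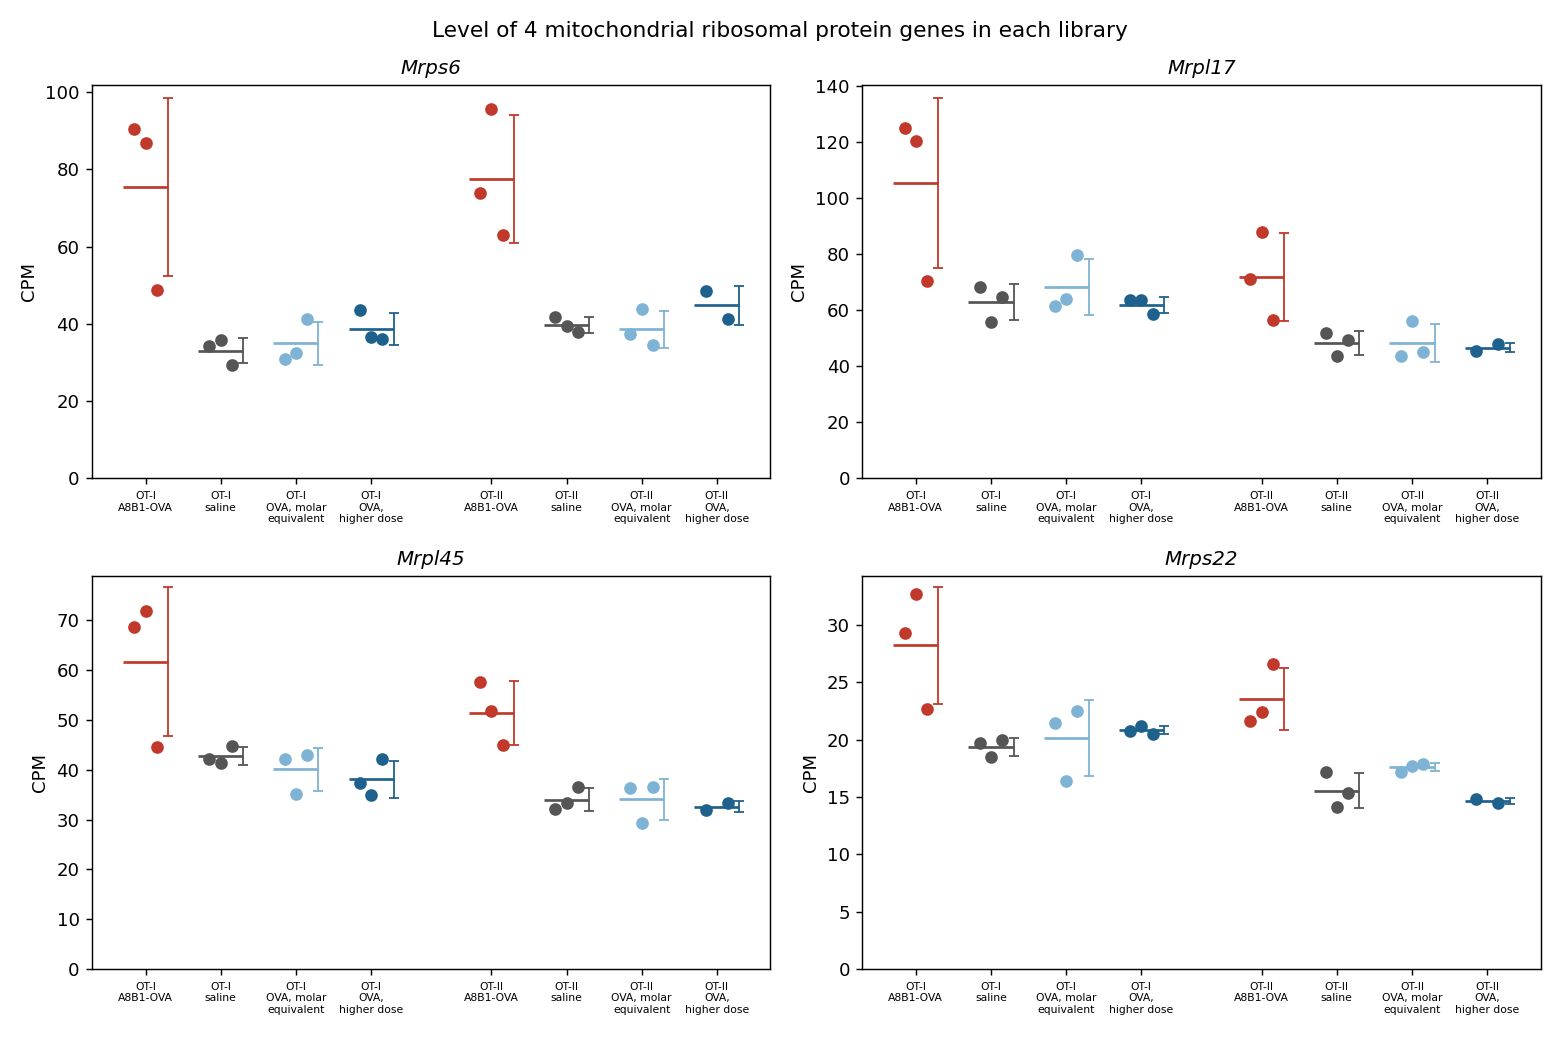
Level of Mrps6, Mrpl17, Mrpl45 and Mrps22 (CPM) in each of the 23 libraries, by cell type and treatment; points are libraries, horizontal lines group means and error bars 1 SD. The third OT-I library with A8B1-OVA is the lowest of its group for all 4 genes, at 48.9 CPM for Mrps6.

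Mrps6 lies at chr16:92058270-92112227 on the plus strand, Mrpl17 at chr7:105803206-105811099 on the minus strand, Mrpl45 at chr11:97315716-97329920 on the plus strand and Mrps22 at chr9:98588730-98601660 on the minus strand (GRCm38, GENCODE M21). Mrps6 overlaps Slc5a3, a myo-inositol transporter gene on the same strand, and 18.4% of the 31-base words of Mrps6 transcripts also occur in those of the overlapping gene Gm49711. The log2 fold change of Slc5a3 was -0.02 ± 0.37 (adjusted p = 0.98) in OT-I and 0.44 ± 0.32 (adjusted p = 0.49) in OT-II cells with A8B1-OVA over saline. Mrpl17 and Mrps22 shared 0.2% and 0.1% of their words with other genes, Mrpl45 13.4% and Mrpl27 38.9%, most of it with the pseudogene Gm6304. Mrpl27 and 28 other members had at least 10% shared, and how far this affects their counts was not tested.

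Since these 4 genes were called in both cell types, their promoter windows are shown (RefSeq, GRCm38.p6, 250 bases before to 50 after the start, 5′ to 3′ on the gene's strand). Capitals mark matches to GCGCA, any 1 base and GCGC, bound by nuclear respiratory factor 1, or CCGGAAG, bound by ETS factors such as GABP, on either strand.
Mrps6, chr16:92058086-92058385, plus strand: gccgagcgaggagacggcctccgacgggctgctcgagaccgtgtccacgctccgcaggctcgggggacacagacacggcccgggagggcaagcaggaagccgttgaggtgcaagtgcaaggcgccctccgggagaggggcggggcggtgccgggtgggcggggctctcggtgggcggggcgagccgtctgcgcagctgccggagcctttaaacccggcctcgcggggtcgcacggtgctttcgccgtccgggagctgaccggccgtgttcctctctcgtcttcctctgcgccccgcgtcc
Mrpl17, chr7:105811038-105811337, minus strand: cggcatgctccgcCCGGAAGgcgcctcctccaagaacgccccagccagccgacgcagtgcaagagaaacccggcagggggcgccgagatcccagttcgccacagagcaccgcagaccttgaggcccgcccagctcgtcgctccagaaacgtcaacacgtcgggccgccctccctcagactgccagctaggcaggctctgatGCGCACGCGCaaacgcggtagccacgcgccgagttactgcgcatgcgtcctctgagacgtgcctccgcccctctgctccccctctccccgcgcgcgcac
Mrpl45, chr11:97315466-97315765, plus strand: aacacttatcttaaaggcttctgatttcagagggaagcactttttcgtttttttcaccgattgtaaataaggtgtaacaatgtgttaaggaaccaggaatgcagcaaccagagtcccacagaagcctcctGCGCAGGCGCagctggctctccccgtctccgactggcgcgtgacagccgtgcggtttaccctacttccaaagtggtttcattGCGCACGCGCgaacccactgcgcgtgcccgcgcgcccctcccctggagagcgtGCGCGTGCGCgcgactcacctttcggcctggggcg
Mrps22, chr9:98601630-98601929, minus strand: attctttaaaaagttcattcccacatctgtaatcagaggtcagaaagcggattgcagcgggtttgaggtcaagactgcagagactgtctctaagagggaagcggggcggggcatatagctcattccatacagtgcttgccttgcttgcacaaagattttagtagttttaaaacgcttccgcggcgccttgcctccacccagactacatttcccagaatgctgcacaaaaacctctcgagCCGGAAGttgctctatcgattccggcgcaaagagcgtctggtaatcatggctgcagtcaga

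The Mrpl17 window held 1 match of each kind, at 49 and 237 bases before the start, the Mrpl45 window 3 of the first kind, and the Mrps22 window 1 of the second, 11 bases before the start. No match was found in the Mrps6 window. Windows were at hand for 69 members. The background was all 27025 genes with a window, which is more than the 15235 tested in the joint fit. It was not limited to expressed genes, while all members were expressed. The shares given next therefore do not set members apart from other expressed genes. The first motif was in the windows of 13 members (18.8%, against 5.19% of 27025 genes) and CCGGAAG in those of 26 (37.7%, against 9.93%). The letters AAGATGGC, bound by YY1, were in 12 (17.4%, against 3.19%), and the E-box CACGTG, bound by Myc among others, in 5 (7.25%, against 8.09%), again on both strands. No matches overlapped in the windows shown. A match is a run of letters and was not tested as a site.

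The difference between the cell types was tested directly in a fit of all libraries. For the response to A8B1-OVA over saline, OT-I minus OT-II, 0 members were called (0.433% of 15235 genes were), 2 had an unadjusted p under 0.05 (2.56%, against 9.24% of all genes) and DESeq2 called 0. The medians of the difference were 0.19 for the large and 0.15 for the small subunit on the log2 scale, against 0.02 over all genes. By transcript length, the median was 0.24 for members and 0.16 for other genes up to 1000 bases. It was 0.08 and 0.03 over 1000 and up to 2000 bases, and 0.15 and 0 over 2000 bases. The part of length was not tested. The large subunit median ran from 0.09 (without OT-II A8B1-OVA library 3) to 0.39 (without OT-I A8B1-OVA library 3). That of the small subunit ran from 0.05 to 0.29 without the same libraries. For Mrps6 the difference was 0.22 ± 0.27 and for Mrpl17 0.17 ± 0.26. For the response to higher-dose OVA 0 members were called by edgeR (background 0.00656%) and 0 by DESeq2, and 1 had an unadjusted p under 0.05 (1.28%, against 5.07% of all genes).

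In saline mice, OT-I cells had higher levels than OT-II cells of 5 members and lower levels of none (6.41%, against 8.36% of all genes higher and 7.11% lower). The medians of the log2 difference were 0.18 for the large and 0.13 for the small subunit, against -0.02 over all genes. Without OT-I saline library 1 they were 0.07 and 0.05. Mrpl19, the counterpart of bacterial L19, had 58.0, 47.8 and 59.3 CPM in OT-I cells, against 32.1, 36.0 and 30.3 CPM in OT-II cells (0.75 ± 0.17, adjusted p = 0.0035). Mrps36 had 59.7, 59.6 and 51.0 CPM in OT-I cells, against 37.4, 32.4 and 34.1 CPM in OT-II cells (0.71 ± 0.19, adjusted p = 0.015). The libraries of the cell types did not overlap for either gene, nor for 31 members in all that were higher and 4 that were lower in OT-I cells (background 18.2% and 16.5%).

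Mrps25 (0.47 ± 0.14, adjusted p = 0.026), Mrps18b (0.42 ± 0.14, adjusted p = 0.043) and Mrpl12 (0.47 ± 0.16, adjusted p = 0.048) were the others. All 5 share sequence with other genes: 37.9% of the words of Mrpl19, mostly with Gcfc2, 68.9% of Mrps25, mostly with Nr2c2, 31.6% of Mrps18b, 15.9% of Mrpl12 and a share between these of Mrps36. Gcfc2 itself was at -0.29 ± 0.20 (adjusted p = 0.38) and Nr2c2 at 0.01 ± 0.17 (adjusted p = 0.99). The count was 2 without each OT-I saline library in turn, and 4, 1 and 1 without OT-II saline libraries 1, 2 and 3. With only these groups in the fit it was 13, and Mrpl19 was called under all 13 alternatives. Mrps36 lost its call under 5, Mrps25 under 6, Mrpl12 under 7 and Mrps18b under 9. Same-numbered saline libraries deviated together across the cell types, and with the replicate number as a block 4 of the 5 were called, Mrps18b having an adjusted p of 0.055.

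Calls among other genes of mitochondrial translation went in both directions with A8B1-OVA over saline. Of all genes tested, 7.07% were called higher and 4.43% lower in OT-I cells, and 4.4% and 2.88% in OT-II cells. No list was tested as a set against these shares. Of 15 translation factors, 1 rose in each cell type: Tufm, the elongation factor that brings tRNA to the ribosome, by 0.40 ± 0.12 (adjusted p = 0.047) in OT-I and 0.61 ± 0.13 (adjusted p = 0.016) in OT-II cells. Among 17 tRNA synthetases, Ears2, which charges glutamate, fell by 0.91 in OT-I (SE 0.16, adjusted p = 0.0025) and by 0.55 in OT-II cells (SE 0.11, adjusted p = 0.0085).

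Of 28 genes of ribosome assembly and rRNA modification, 1 rose and 2 fell in OT-I cells and 1 rose in OT-II cells. In OT-I cells the helicase Ddx28 rose (0.63 ± 0.17, adjusted p = 0.031), and the rRNA methyltransferases Mrm1 (-0.87 ± 0.13, adjusted p = 0.0012) and Nsun4 (-0.53 ± 0.16, adjusted p = 0.048) fell. In OT-II cells C1qbp, a matrix protein that binds RNA, rose (0.57 ± 0.12, adjusted p = 0.011), and Mrm1 was at -0.49 ± 0.17 (adjusted p = 0.11). No gene was called in either cell type among 8 of mitochondrial DNA upkeep, 9 regulators of mitochondrial biogenesis and 5 ribosomal proteins with other symbols. The list medians in OT-I cells were 0.21 for translation factors, -0.08 for assembly, -0.03 for synthetases and -0.04 for DNA upkeep. They were 0 for the regulators and 0.31 for the 5 further ribosomal proteins, against -0.02 over all genes. In OT-II cells the medians were, in the same order, 0.18, -0.02, 0.05, -0.12, 0.05 and -0.01, against -0.01 over all genes.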

How the data were processed

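RNA of sorted OT-I and OT-II cells was turned into cDNA with the SmartSeq protocol, per the labels. The tools bcl2fastq and kallisto 0.46.1 and the build GRCm38 are named in the submitters' processing notes. Estimated counts of 21900 protein-coding genes in 23 libraries were deposited, all whole numbers, with rounding and annotation release not given in the sources used here. Groups followed the labels. edgeR 4.0.16 in R 4.3.3 was used with TMM factors, filterByExpr (minimum count 10, minimum total 15), 1 coefficient per group, no block and quasi-likelihood tests, per cell type (14080 and 14757 genes) and jointly (15235). CPM are counts per M after TMM scaling over all libraries. Adjusted p-values are Benjamini-Hochberg over all genes tested, called under 0.05. The test was tried on simulated counts first. Transcript length is that of the shortest complete APPRIS principal transcript in GENCODE M21. For genes without one it is that of the longest complete protein-coding transcript, or else of the longest partial one. Shared sequence was counted over 31-base words. Deviations from saline used log2(CPM + 0.5).

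Named members are those called, the 2 highest and 2 lowest log2 fold changes per subunit, the 3 highest and lowest per length, and a panel of 19, from which examples were taken; Mrpl49, Mrps16 and Mrps36 are also named for their span over libraries. In the comparison of cell types with saline, replicate numbers may pair samples. Deviations from the group means correlated at 0.281, 0.129 and 0.128 over its 3 pairs, which comes from the data, not the labels. The p-values given are from the fit without a block, and the result with the block is given beside them. The result of 1 gene of these lists is not reported here. Members and lists were chosen with earlier results of these data known. Alternatives tried were DESeq2 1.42.0, relative log expression factors, no filter, the replicate block, only the groups compared, each library left out, and those named as chosen after the data were seen.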

Additional observations from a re-analysis of the deposited data

How the results depend on the processing

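The counts of members called moved with the setting, while no called member changed direction under any alternative tried. For the alternatives, here and above, the share of all genes called is not given, so the counts do not set members apart from other genes. Subunit medians for A8B1-OVA over saline ran, with each library left out, from 0.19 to 0.46 (large) and 0.07 to 0.31 (small) in OT-I cells, and from 0.02 to 0.19 and -0.05 to 0.15 in OT-II cells. With each library left out in turn, the count for A8B1-OVA over saline ran from 1 to 23 in OT-I cells and, in OT-II cells, from 2 to 5. Over molar-equivalent OVA it ran from 1 to 11 in OT-I cells and, in OT-II cells, from 1 to 4, and over higher-dose OVA from 0 to 20 in OT-I cells and, in OT-II cells, from 0 to 4. For OT-I over OT-II cells with saline it ran from 1 to 4. DESeq2 gave 11 members for A8B1-OVA over saline, 6 over molar-equivalent and 5 over higher-dose OVA in OT-I, 6 over higher-dose OVA in OT-II, 1 for higher-dose OVA over saline in OT-I, and 8 for OT-I over OT-II cells. With the length trend removed these were 12, 8 and 3 in OT-I, 5 for A8B1-OVA over molar-equivalent OVA in OT-II and 11 for OT-I over OT-II cells. With only the groups compared they were 3, 1 and 0 in OT-I, 2 over saline and 0 over higher-dose OVA in OT-II, 1 for higher-dose OVA over saline in OT-I and 13 for OT-I over OT-II cells; fewer libraries enter that fit. Without the 5 doubted libraries they were 1 over saline and 0 over higher-dose OVA in OT-I, 3 and 0 in OT-II, and 2 for OT-I over OT-II cells. No filter on low counts gave 3 for OT-I over OT-II cells, with more genes tested. Otherwise the cause was not tested.

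With the replicate block, the counts were 0 for A8B1-OVA over higher-dose OVA in both cell types and 1 for higher-dose OVA over saline in OT-I (Mrpl38, adjusted p = 0.049), and the other counts stayed within 1.5 times. The block ended the calls of Mrps22 over saline and Mrpl45 over molar-equivalent OVA in OT-I, of Mrpl17 over both in OT-II, and of Mrps18b between cell types with saline, and Mrpl38 gained one in OT-I over molar-equivalent OVA. The main fits did not take replicate numbers as pairs. The correlation of deviations was -0.347 to 0.157 over 18 same-numbered OT-I pairs and -0.144 to 0.063 over 15 OT-II pairs. Over 11 pairs across cell types it was -0.026 to 0.281. The best match was the own number in 6, 4 and 7 of these. With 3 libraries a group, no member with a log2 fold change near the subunit medians passed the test of A8B1-OVA over saline.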

Other observations

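The 13 protein genes of the mitochondrial genome, whose messages the mitochondrial ribosome translates, were added as a list after the data were seen. With saline, all 13 were higher in OT-I than in OT-II cells, with a median log2 difference of 0.65. Of these, 1 passed the test, mt-Nd1 (0.84), against 8.36% of all genes called higher and 7.11% lower. The 13 genes were measured in the same libraries, so their shared direction is not 13 separate observations. With A8B1-OVA over higher-dose OVA in OT-I cells all 13 were positive with a median of 0.63 and none was called. Those higher-dose libraries also stood below saline, with a median of -0.46 and 0 of 13 positive for higher-dose OVA over saline. With A8B1-OVA over saline the median was 0.17 in OT-I cells (12 of 13 positive) and -0.09 in OT-II cells (4 of 13 positive), and none was called.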
